A study of Mus musculus with 24 samples.

Results

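The unfolded protein response and the integrated stress response were followed through 41 genes in lung RNA sequencing of mice. The genes were taken by symbol from a list of endoplasmic reticulum (ER) chaperones, disulfide isomerases, degradation and translocation factors, stress sensors and ATF4 targets. This list and the role, pathway and marker lists below were chosen with earlier results of these data known. Counts and shares set beside all tested genes therefore describe the lists and do not test them. All 41 were among the 26253 genes of the deposited table, and all 41 were among the 16153 that passed the filter on low counts. The 24 libraries were made from lung of mice given either control food or food enriched in the omega-3 fatty acid docosahexaenoic acid (DHA). Exposure to ozone, which oxidises the airway surface, or to filtered air came after the feeding. Each of the 4 groups (control diet with air, control diet with ozone, DHA diet with air, DHA diet with ozone) had 6 libraries. The sources used here give no strain, sex, age, ozone concentration or sampling time. They also leave unsaid whether each library is a separate mouse, and the p-values below therefore rest on variation among libraries, which may be technical.

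The ER folds secreted and membrane proteins. When unfolded protein builds up there, the membrane sensors ATF6, IRE1 (gene Ern1) and PERK (gene Eif2ak3) raise the output of chaperones and degradation factors. PERK and related kinases also phosphorylate the translation factor eIF2α, which slows translation in general while favouring that of ATF4, an arm shared with other stresses and called the integrated stress response. In lung, alveolar type 2 cells, club cells and plasma cells are known for a heavy secretory load. Much of this signalling takes place on proteins and by splicing of Xbp1 mRNA, and neither is visible in counts per gene.

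Promoter sequence is shown first because many of these genes are known to share an ER stress response element (ERSE), the letters CCAAT, 9 bases of any kind and CCACG, which ATF6 binds together with NF-Y. Both strands were searched from 250 bases before to 50 bases after each RefSeq gene start (GRCm38.p6). Of the 41 genes, 35 had an entry in the promoter table, and Hyou1, Manf, Derl1, Atf6, Sec61a1 and Ssr2 had none. The ERSE letters were found in 9 of the 35 (25.7%), Hspa5, Hsp90b1, Calr, Canx, Dnajc3, Creld2, Pdia6, Syvn1 and Derl3, and in 22 of the 12718 tested genes with an entry (0.173%). The stretches below end at the base before the gene start. Capitals mark the element, or its reverse complement where the first capital letters are CGTGG, in chaperone, isomerase and degradation genes, and the last line shows the related ERSE-II (ATTGG, 1 base, CCACG).

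Hspa5: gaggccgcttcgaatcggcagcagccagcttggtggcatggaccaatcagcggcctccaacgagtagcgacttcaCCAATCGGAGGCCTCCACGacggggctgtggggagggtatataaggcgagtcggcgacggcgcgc
Hsp90b1: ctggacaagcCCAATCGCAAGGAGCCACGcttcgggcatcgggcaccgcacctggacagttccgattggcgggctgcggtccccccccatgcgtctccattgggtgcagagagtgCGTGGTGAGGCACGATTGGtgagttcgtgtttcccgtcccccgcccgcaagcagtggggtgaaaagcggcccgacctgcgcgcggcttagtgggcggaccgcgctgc
Calr: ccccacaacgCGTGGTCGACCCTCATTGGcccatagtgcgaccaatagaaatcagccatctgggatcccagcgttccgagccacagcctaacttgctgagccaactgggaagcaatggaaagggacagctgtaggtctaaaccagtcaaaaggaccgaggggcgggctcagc
Pdia6: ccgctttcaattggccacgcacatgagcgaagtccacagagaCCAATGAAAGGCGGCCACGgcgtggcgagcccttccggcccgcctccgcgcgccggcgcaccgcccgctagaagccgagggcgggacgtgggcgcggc
Syvn1: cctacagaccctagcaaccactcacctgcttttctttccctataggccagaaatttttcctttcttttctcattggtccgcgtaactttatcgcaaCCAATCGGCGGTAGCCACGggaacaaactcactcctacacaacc
Herpud1: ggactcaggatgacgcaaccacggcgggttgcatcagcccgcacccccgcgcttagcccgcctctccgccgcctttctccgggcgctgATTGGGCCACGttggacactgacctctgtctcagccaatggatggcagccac

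These stretches lie in GRCm38.p6 at chr2:34771950-34772089 on the plus strand (Hspa5), chr10:86705445-86705666 on the minus strand (Hsp90b1), chr8:84846932-84847103 on the minus strand (Calr), chr12:17266449-17266588 on the plus strand (Pdia6), chr19:6046436-6046575 on the plus strand (Syvn1) and chr8:94386289-94386428 on the plus strand (Herpud1). The Hspa5 element spans bases -65 to -47 from the gene start, that of Pdia6 -98 to -80 and that of Syvn1 -44 to -26, all in the direction of the gene. The Calr element (-162 to -144) runs on the opposite strand. Hsp90b1 held 1 copy in each direction, at -212 to -194 and -107 to -89. ERSE-II was found in Herpud1 and, after the gene start, in Dnajb11 (2 of 35, 5.71%, against 0.0708% of tested genes). ERSE and ERSE-II are built from the same CCAAT and CCACG letters. The core TGACGTGG of the XBP1-bound element, which holds CCACG reversed and complemented, was found in Txndc5 and Txndc11 (5.71% against 1.06%). The ATF4-bound element (TGATG, 1 base, AA) was found in Txndc5, Herpud1, Trib3, Chac1 and Asns (14.3% against 2.84%). No pair of these motifs overlapped in a member. A match is a description of letters in a window and not a binding site.

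Per kilobase of exon (lengths from the GENCODE M21 annotation), the mean level over the 24 libraries was highest in P4hb, the protein disulfide isomerase, at 241 counts-per-million (CPM) per kb. Pdia3 followed at 189, Calr at 184, Hsp90b1 at 179.7 and Hspa5 at 120.4 CPM per kb. At the other end stood Derl3 at 1.12, Chac1 at 2.36 and the sensor Ern1 at 2.78 CPM per kb. Within control-diet air the coefficient of variation of CPM ran from 1.47% in Derl1 to 16.6% in Sec61b. Library totals ran from 18053493 to 26225630 counts. Control-diet air libraries 1, 2 and 3 stood apart: their 79 ribosomal protein transcripts summed to 13416 to 14059 CPM, against 17709.7 to 18272 in libraries 4, 5 and 6 and 14821 to 18357 in the other 3 groups. DHA-diet ozone libraries 1 and 2 had the highest summed level of neutrophil markers in their group. Member calls that ended or appeared without either set are named below.

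After ozone, chaperone, disulfide isomerase and translocation genes were higher than after air on both diets, by less than 2-fold, while most of the 7 degradation factors, 6 sensors and regulators and 6 integrated stress response effectors did not pass the test. Of 21 further ATF4-linked genes outside the 41, 6 rose (28.6%) and 2 fell on the control diet, and 14 rose (66.7%) and 1 fell on the DHA diet. No interaction was called by edgeR for that list or for any tested gene. The counts of the list turned on few libraries, as given below. On the control diet 23 of the 41 genes were called higher and 0 lower (edgeR quasi-likelihood test, Benjamini-Hochberg adjusted p under 0.05 over all genes), against 8.93% of tested genes called higher and 7.87% called lower. On the DHA diet 26 were called higher and 0 lower, against 12.7% and 11% of tested genes. None of the 41 was lower at an unadjusted p under 0.05 or by DESeq2 on either diet (0 in each), and DESeq2 called 23 and 26 higher. The median log2 fold change of the 41 was 0.17 on the control diet and 0.19 on the DHA diet, and that of all tested genes was -0.01 on each. All 6 ozone libraries lay above all 6 air libraries in 18 members on the control diet, against 4.5% of tested genes, and in 16 on the DHA diet, against 5.14%. Called higher on both diets were 21 genes, which is 91.3% of the control-diet calls and 80.8% of the DHA-diet calls. Scaled by library totals alone, 18 and 25 members were called higher and 0 lower. With that scaling 940 of all genes were higher and 1737 lower on the control diet, against 1442 and 1271 with TMM.

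**Figure D1:**
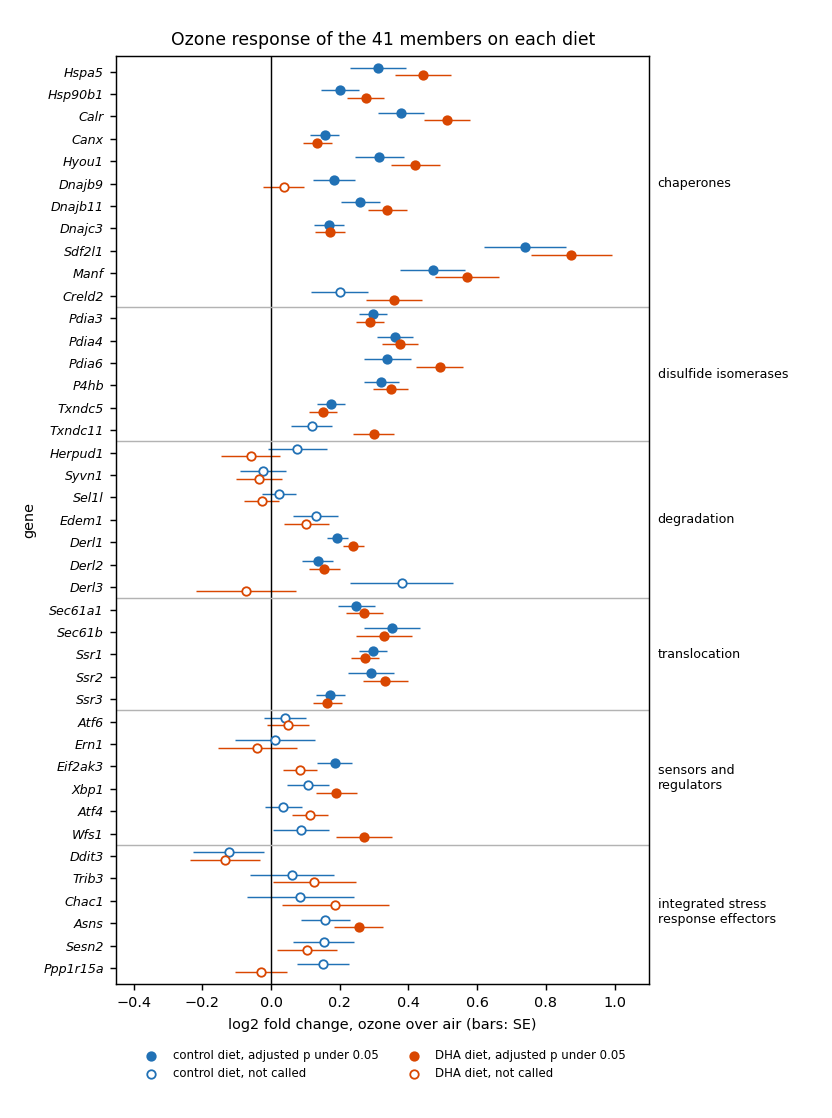
Log2 fold change of ozone over air for each of the 41 genes on the control and DHA diets, with bars of 1 standard error, ordered by role. Filled points passed an adjusted p under 0.05: 23 on the control diet and 26 on the DHA diet, all to the right of 0, and they gather in the chaperone, disulfide isomerase and translocation blocks.

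Of 11 chaperones and co-chaperones, 10 rose on the control diet (median log2 fold change 0.26) and 10 on the DHA diet (0.36). Sdf2l1, a partner of ER J-domain proteins, had the highest fold of the 41 on both diets. It ran from 12.6 to 18.5 CPM (median 15.6) in control-diet air, from 20.4 to 32.8 (median 26.04) in control-diet ozone, from 16.8 to 21.6 (median 17.6) in DHA-diet air and from 27.6 to 40.1 (median 33.1) in DHA-diet ozone. Air and ozone ranges were apart on both diets, and DHA-diet ozone library 1 was the highest of all. The rise was 1.67-fold with control food (0.74 ± 0.12 on the log2 scale, here and below ± SE, edgeR adjusted p = 1.7e-04) and 1.83-fold with DHA (0.87 ± 0.12, adjusted p = 1.4e-05). Its position in mm39, as deposited, is chromosome 16, 16948002 to 16950248. Such positions may be off by 1 base, since their counting convention was not stated.

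Hspa5 encodes BiP, the main Hsp70 chaperone of the ER and a known marker of the unfolded protein response (chromosome 2, 34662102 to 34666542). It ran from 399 to 435 CPM (median 421) in control-diet air and from 475 to 579 (median 517) in control-diet ozone. With DHA its air libraries ran from 432 to 542 (median 453), with library 2 highest, and in DHA-diet ozone from 522 to 785 (median 616), with libraries 1 and 4 highest. The groups were apart on the control diet and overlapped on the DHA diet, where air library 2 stood above the lowest ozone libraries. The rise was 1.24-fold on the control diet (0.31 ± 0.08, edgeR adjusted p = 0.009) and 1.36-fold on the DHA diet (0.44 ± 0.08, adjusted p = 3.0e-04). In the fit without control-diet air libraries 1, 2 and 3 the control-diet call ended (0.28, adjusted p = 0.078).

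Calr encodes calreticulin, a lectin chaperone that holds calcium (chromosome 8, 85568717 to 85573561). Its levels were 405 to 467 CPM (median 448) in control-diet air, 509 to 659 (median 564) in control-diet ozone, 422 to 485 (median 464) in DHA-diet air and 570.2 to 749 (median 654) in DHA-diet ozone. No ozone library fell within the range of air on the same diet. Calr rose 1.30-fold on the control diet (0.38 ± 0.07, edgeR adjusted p = 4.4e-04) and 1.43-fold on the DHA diet (0.51 ± 0.07, adjusted p = 1.2e-05).

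Manf, a small ER protein that binds BiP and can be secreted, ran from 74.04 to 102 CPM (median 87.2) in control-diet air, 103 to 152 (median 121) in control-diet ozone, 91.7 to 108 (median 98.1) in DHA-diet air and 125 to 181 (median 142) in DHA-diet ozone. The groups did not overlap, though the lowest control-diet ozone library lay close to the highest air library. It rose 1.39-fold (0.47 ± 0.09, edgeR adjusted p = 0.0012) and 1.48-fold (0.57 ± 0.09, adjusted p = 1.1e-04). Without control-diet air libraries 1, 2 and 3, whose Manf levels were the lowest of the group, the control-diet value was 0.33 (adjusted p = 0.054). Hyou1, which recharges BiP with nucleotide, ran from 98.8 to 114 CPM (median 109) and 120.0 to 153 (median 133) on the control diet, and from 106 to 127 (median 115) and 133 to 183 (median 152) on the DHA diet, in air and ozone in that order. All its ozone libraries lay above all air libraries of the same diet, by 1.24-fold (0.31 ± 0.07, edgeR adjusted p = 0.0033) and 1.34-fold (0.42 ± 0.07, adjusted p = 1.4e-04).

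Hsp90b1, the ER Hsp90 (0.20 and 0.28 on the log2 scale), Dnajb11 (0.26 and 0.34), Dnajc3 (0.17 and 0.17) and the lectin chaperone Canx (0.16 and 0.13) were called higher on both diets. The Hsp90b1 call on the control diet ended without control-diet air libraries 1, 2 and 3 (0.20, edgeR adjusted p = 0.061) and without libraries 4, 5 and 6 (0.19, adjusted p = 0.052). The Canx call on the control diet ended with library totals and without control-diet air libraries 4, 5 and 6 (0.12, adjusted p = 0.123). Its call on the DHA diet ended with library totals, with the 2 groups alone, without DHA-diet air library 3 or DHA-diet ozone library 1 (adjusted p of at most 0.058), and without DHA-diet ozone libraries 1 and 2 together (0.10, adjusted p = 0.115). The control-diet call of Dnajc3 ended with library totals. Creld2, a stress-inducible ER protein, ran from 49.04 to 56.6 CPM (median 51.9) in control-diet air and from 51.1 to 76.9 (median 58.3) in control-diet ozone, with overlap, and was not called there (0.20 ± 0.08, edgeR adjusted p = 0.0997), though it was without control-diet ozone library 5. On the DHA diet it went from a median of 52.3 CPM (49.8 to 57.9) to a median of 69.99 (54.6 to 77.2), 1.28-fold (0.36 ± 0.08, edgeR adjusted p = 0.0025). Dnajb9, a J-domain partner of BiP, was called on the control diet (0.18, adjusted p = 0.037) and not on the DHA diet (0.04, adjusted p = 0.707). Its call ended without control-diet air library 1, 3 or 5, control-diet ozone library 2, 3, 4 or 6, or DHA-diet air library 3, with an adjusted p of at most 0.104. It also ended with library totals, without the filter on low counts, and without control-diet air libraries 1, 2 and 3 (0.13, adjusted p = 0.262).

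**Figure D2:**
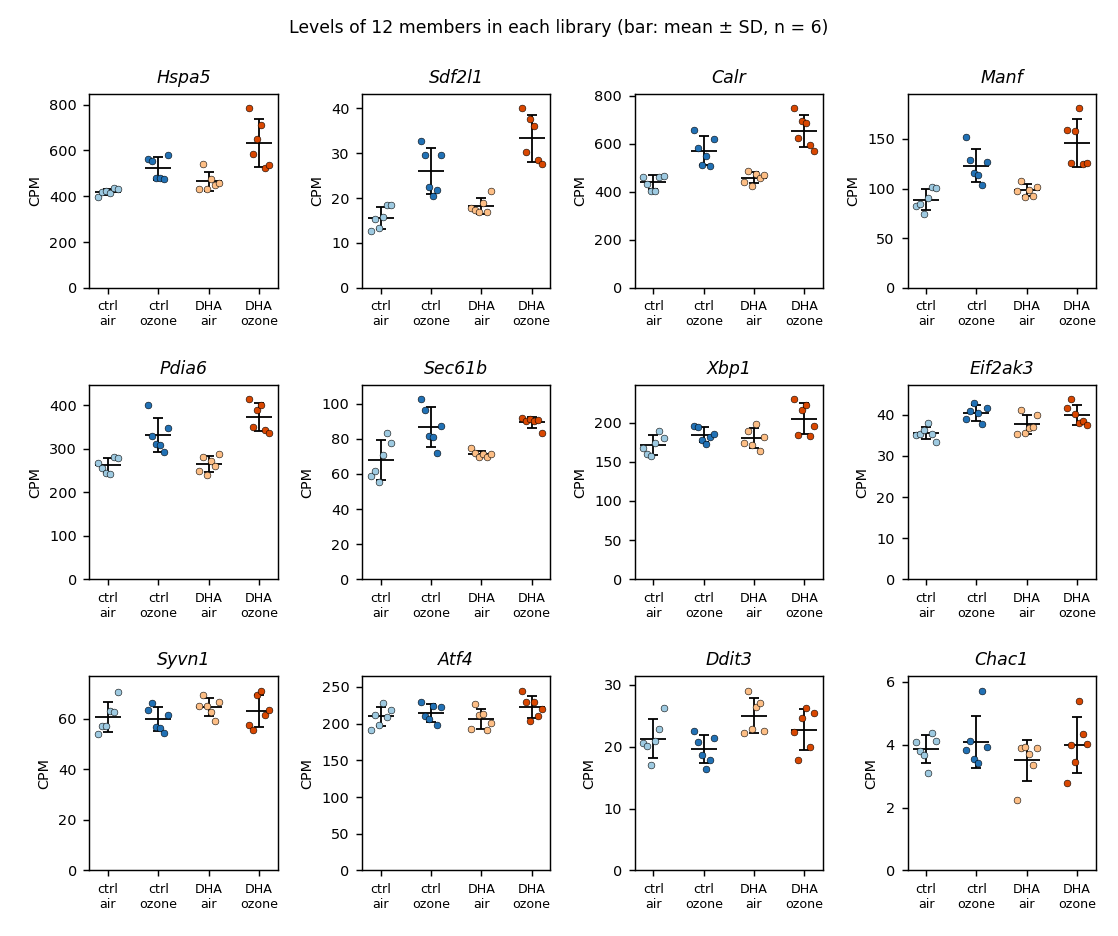
CPM in each of the 6 libraries of each group for 12 genes, with the group mean and bars of 1 SD. In Sdf2l1, Calr, Manf and Pdia6 the ozone points stand above the air points of the same diet without overlap, whereas in Syvn1, Atf4, Ddit3 and Chac1 the ozone and air points overlap.

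Disulfide isomerases and thioredoxin-domain proteins, which form and rearrange disulfide bonds in the ER, rose in 5 of 6 on the control diet (median 0.31) and 6 of 6 on the DHA diet (median 0.32). Pdia4 ran from 92.3 to 109 CPM (median 99.3) in control-diet air, 120.5 to 142 (median 125) in control-diet ozone, 103 to 118 (median 111) in DHA-diet air and 126 to 154 (median 148) in DHA-diet ozone. No ozone library reached down to the air libraries, and the rise was 1.28-fold (0.36 ± 0.05, edgeR adjusted p = 6.7e-05) and 1.30-fold (0.38 ± 0.05, adjusted p = 2.0e-05). Pdia6, an isomerase that also acts on the sensors, ran from 242 to 282 CPM (median 262) and 292 to 400.0 (median 320.1) on the control diet and from 239 to 289 (median 267) and 337 to 414 (median 371) on the DHA diet. These groups were again apart, by 1.26-fold (0.34 ± 0.07, edgeR adjusted p = 0.0013) and 1.41-fold (0.49 ± 0.07, adjusted p = 1.8e-05). P4hb ran from 554 to 631 CPM (median 590.2) in control-diet air and 677 to 800.5 (median 735) in control-diet ozone, 1.25-fold higher (0.32 ± 0.05, edgeR adjusted p = 1.3e-04). On the DHA diet P4hb ran from 592 to 643 CPM (median 636) in air and 720.1 to 914 (median 788) after ozone. Pdia3, the partner of calreticulin and calnexin, and Txndc5 also rose on both diets (0.30 and 0.29, and 0.17 and 0.15 on the log2 scale), and the control-diet call of Txndc5 ended without control-diet air libraries 4, 5 and 6 (0.13, adjusted p = 0.077). Txndc11 was called on the DHA diet (0.30 ± 0.06, edgeR adjusted p = 6.8e-04) and not on the control diet (0.12 ± 0.06, adjusted p = 0.181). The strand setting of the counting is not given, and Txndc5 overlaps Bmp6, Txndc11 overlaps Snn and Pdia6 overlaps Atp6v1c2 in the deposited coordinates, so reads of these pairs may be shared.

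The translocation factors, which carry new chains into the ER, rose in 5 of 5 on both diets. Sec61b, a subunit of the channel, ran from 55.3 to 83.6 CPM (median 66.2) in control-diet air, 71.8 to 103 (median 84.3) in control-diet ozone, 69.5 to 74.6 (median 71.3) in DHA-diet air and 83.3 to 91.7 (median 90.4) in DHA-diet ozone. Its groups overlapped on the control diet and were apart on the DHA diet. It rose 1.28-fold on the control diet (0.35 ± 0.08, edgeR adjusted p = 0.0041). Without control-diet air libraries 1, 2 and 3 that value was 0.16 (adjusted p = 0.195) and the call ended. The channel subunit Sec61a1 (0.25 and 0.27) and the translocon-associated subunits Ssr1 (0.30 and 0.27), Ssr2 (0.29 and 0.33) and Ssr3 (0.17 and 0.16) had log2 fold changes of like size on the control and DHA diets, and the Ssr2 call on the control diet also ended without those 3 libraries (0.20, adjusted p = 0.107). That of Ssr3 ended with library totals.

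Degradation factors, which draw misfolded proteins out of the ER for destruction, rose in 2 of 7 on each diet. That is 28.6%, against 8.93% of tested genes called higher on the control diet and 12.7% on the DHA diet. The 2 were Derl1 (0.19 and 0.24) and Derl2 (0.14 and 0.15), channel proteins of the ER membrane. Derl1 ran from 103 to 107 CPM in control-diet air and 116 to 123 after ozone on that diet, then 103 to 108 in DHA-diet air and 118 to 129 in DHA-diet ozone, with no overlap on either diet. The control-diet call of Derl2, which overlaps Mis12, ended with library totals, without the filter, with the 2 groups alone, without control-diet air libraries 1, 2 and 3 (0.09, adjusted p = 0.303), and when 17 of the 24 libraries were left out 1 at a time, with an adjusted p of at most 0.113. The libraries it did not depend on were control-diet air 6, control-diet ozone 5, DHA-diet air 6 and DHA-diet ozone 1, 3, 4 and 5. The other 5 were not called on either diet. Herpud1, a ubiquitin-domain factor whose promoter is shown above, ran from 193 to 267 CPM (median 220.0) in control-diet air, 221 to 247 (median 237) in control-diet ozone, 231 to 289 (median 244) in DHA-diet air and 175 to 281 (median 254) in DHA-diet ozone. Syvn1, the ubiquitin ligase Hrd1, had medians of 60.04, 59.2, 65.1 and 62.5 CPM in the same order. The 4 groups of both genes overlapped. Sel1l, the partner of Syvn1, had log2 fold changes of 0.02 and -0.03, Edem1, a lectin-like factor, 0.13 and 0.10, and Derl3 0.38 and -0.07. Derl3 was called on the control diet without DHA-diet ozone libraries 1 and 2, which are in neither group compared (0.38, adjusted p = 0.044). Over the 7 degradation factors the median log2 fold change was 0.13 on the control diet and -0.03 on the DHA diet. Without DHA-diet ozone libraries 1 and 2 the DHA-diet median was 0.11.

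Among the 11 members with ERSE or ERSE-II, 7 were called higher on the control diet (median log2 fold change 0.20) and 8 on the DHA diet (0.28). Among the 24 with an entry and neither element, 11 and 13 were called higher (medians 0.15 and 0.16). Syvn1, Herpud1 and Derl3 hold an element and were not called on either diet, while Sdf2l1, without either element in its window, had the highest fold. Over all 31 tested genes with an element, the 11 members included, 8 were higher and 6 lower on the control diet and 10 and 6 on the DHA diet. Members made up 7 of the 8 higher calls on the control diet, 8 of the 10 on the DHA diet and 0 of the lower calls.

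**Figure D3:**
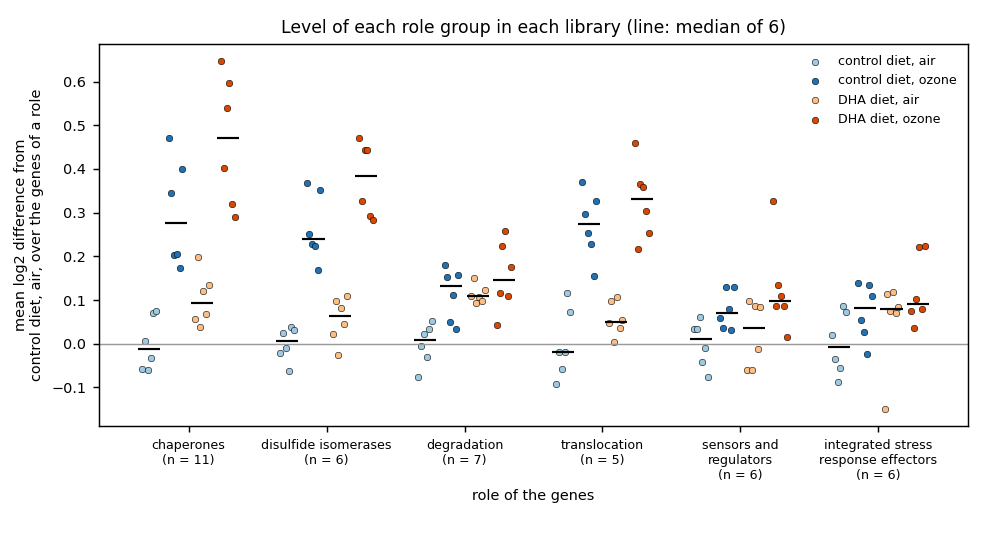
Mean over the genes of each role of the log2(CPM + 1) difference from the control-diet air mean, 1 point per library. Ozone points of the chaperone, disulfide isomerase and translocation roles lie above the air points of the same diet without overlap, while those of the sensor and integrated stress response roles overlap with air on both diets.

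Of 6 sensors and regulators, 1 rose on the control diet (16.7%, against 8.93% of tested genes), Eif2ak3, and 2 on the DHA diet (33.3%, against 12.7%), Xbp1 and Wfs1. Without DHA-diet air library 3 the latter count was 0. Eif2ak3, the gene of PERK, ran from 33.4 to 37.99 CPM (median 35.4) in control-diet air, 37.8 to 42.9 (median 40.7) in control-diet ozone, 35.4 to 41.1 (median 36.96) in DHA-diet air and 37.4 to 43.8 (median 39.3) in DHA-diet ozone. The groups overlapped on both diets, narrowly on the control diet. Its change was 0.18 ± 0.05 on the control diet (edgeR adjusted p = 0.011) and 0.08 ± 0.05 on the DHA diet (adjusted p = 0.232), and the first call ended without control-diet air libraries 1, 2 and 3 (0.18, adjusted p = 0.064).

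Xbp1, the transcription factor made active by IRE1, ran from 157 to 189 CPM (median 171) in control-diet air, 173 to 196 (median 183) in control-diet ozone, 164 to 199 (median 178) in DHA-diet air and 182 to 230 (median 205) in DHA-diet ozone, with overlap on both diets. It was not called on the control diet (0.11 ± 0.06, edgeR adjusted p = 0.234) and was called on the DHA diet (0.19 ± 0.06, adjusted p = 0.022). Without DHA-diet air library 3 or 5, or DHA-diet ozone library 1, 3 or 4, the DHA-diet adjusted p was 0.051 to 0.061. Wfs1, the ER membrane protein wolframin, changed by 0.09 and 0.27 (DHA-diet adjusted p = 0.017, and 0.054 without DHA-diet air library 3).

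Atf6 ran from 56.5 to 76.3 CPM (median 67.5) in control-diet air, 64.1 to 73.9 (median 67.8) in control-diet ozone, 61.5 to 70.1 (median 67.4) in DHA-diet air and 62.7 to 76.8 (median 68.1) in DHA-diet ozone. Its 4 groups overlapped, with log2 fold changes of 0.04 ± 0.06 (edgeR adjusted p = 0.696) and 0.05 ± 0.06 (adjusted p = 0.608). Ern1, the gene of IRE1, had medians of 22.1, 21.8, 23.4 and 22.4 CPM in the same order and changes of 0.01 ± 0.12 (edgeR adjusted p = 0.963) and -0.04 ± 0.12 (adjusted p = 0.839). Atf4 had medians of 211, 216, 206 and 224 CPM and changes of 0.04 ± 0.05 (edgeR adjusted p = 0.696) and 0.11 ± 0.05 (adjusted p = 0.128), and was called on the DHA diet without DHA-diet air library 2. The signs of the control-diet values of Atf6, Ern1 and Atf4 turned under other choices of libraries or scaling.

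Integrated stress response effectors rose in 0 of 6 on the control diet by edgeR, against 8.93% of tested genes. At an unadjusted p under 0.05, 1 of 6 was higher there (16.7%, against 15.6%). On the DHA diet 1 of 6 rose, Asns (16.7%, against 12.7%), which is near the share of all tested genes. Ddit3, the transcription factor CHOP, ran from 16.99 to 26.3 CPM (median 20.8) in control-diet air, 16.5 to 22.5 (median 19.7) in control-diet ozone, 22.2 to 29.1 (median 24.6) in DHA-diet air and 17.9 to 26.3 (median 23.5) in DHA-diet ozone. The groups overlapped, and the changes were -0.12 ± 0.10 (edgeR adjusted p = 0.452) and -0.13 ± 0.10 (adjusted p = 0.365). Ddit3 overlaps Mars1 in the deposited coordinates. Chac1, an enzyme that degrades glutathione, stayed between 2.23 and 5.71 CPM over the 24 libraries, with medians of 3.95, 3.86, 3.79 and 3.996 CPM and changes of 0.09 ± 0.16 (edgeR adjusted p = 0.757) and 0.19 ± 0.16 (adjusted p = 0.415).

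Asns, asparagine synthetase, changed by 0.16 on the control diet (adjusted p = 0.135) and by 0.25 on the DHA diet (edgeR adjusted p = 0.011), where its levels went from 15.1 to 20.3 CPM in air to 20.2 to 24.8 after ozone, overlapping narrowly. The pseudokinase Trib3 (0.06 and 0.13), the growth regulator Sesn2 (0.15 and 0.10) and Ppp1r15a, the subunit that directs dephosphorylation of eIF2α (0.15 and -0.03), were not called on either diet.

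**Figure D4:**
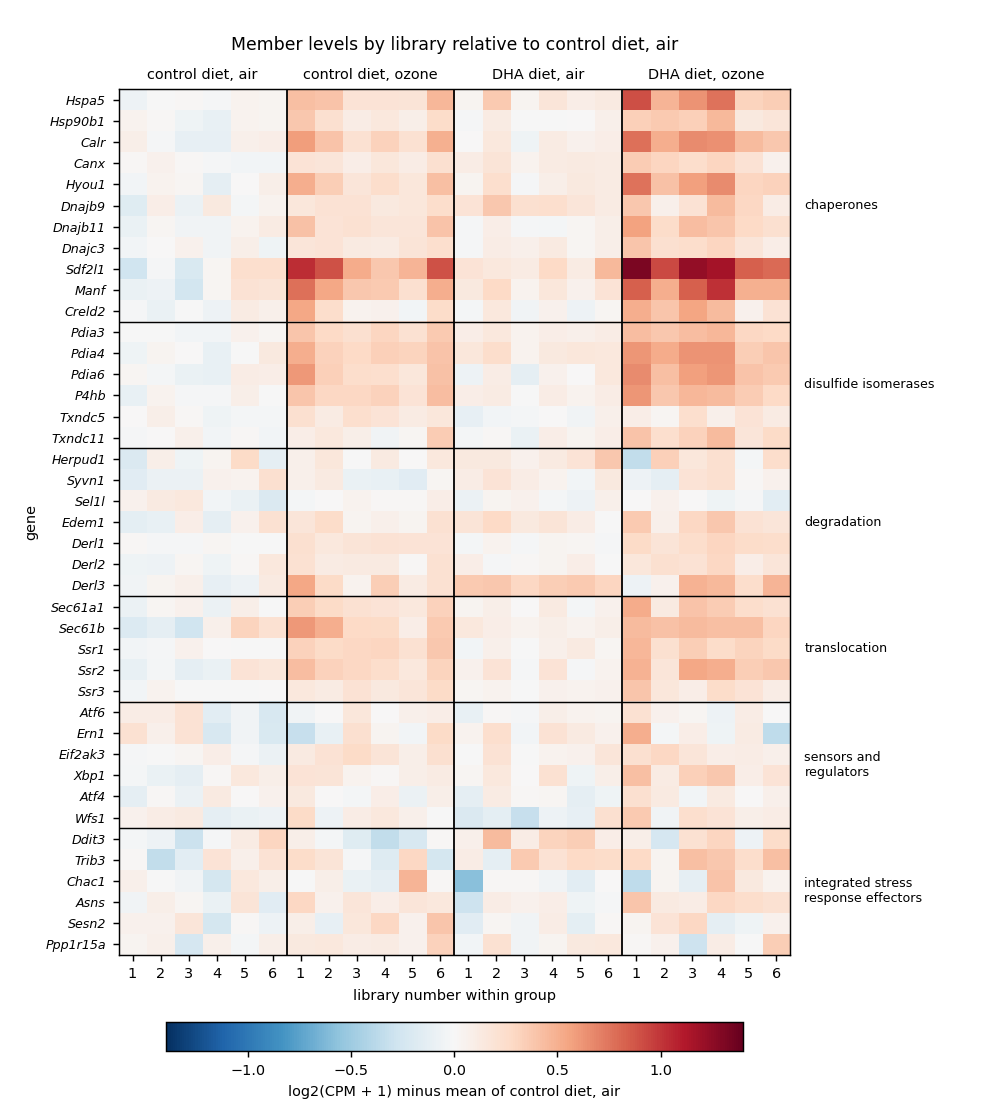
Log2(CPM + 1) of each of the 41 genes (rows, by role) in each of the 24 libraries (columns, by group), as the difference from the gene's control-diet air mean. The ozone columns of both diets are raised across the chaperone, isomerase and translocation rows, with Sdf2l1 the most raised row, and the degradation, sensor and integrated stress response rows are mixed.

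Other genes of these pathways, 72 tested of 73 in the table, were called higher in 24 and lower in 2 on the control diet, and higher in 32 and lower in 1 on the DHA diet. Among further translocation, signal peptidase and glycosylation factors 9 of 15 and 7 of 15 rose, including the oligosaccharyltransferase subunits Rpn2 (0.28 and 0.26 on the log2 scale), Ddost (0.34 and 0.34) and Rpn1 (0.32 and 0.37). Among further folding factors 7 of 14 and 5 of 14 rose, including Erp44 (0.30 and 0.24), which retains client proteins, and the BiP exchange factor Sil1 (0.31 and 0.24). Vcp, the ATPase that pulls proteins from the ER, was the 1 of 10 further degradation factors that rose on the control diet (0.25), and 3 of 10 rose on the DHA diet, Vcp and Ube2g2 among them. Of 12 further regulators Atf6b rose on the control diet, and Atf6b, Creb3l1 and Eif2s1 on the DHA diet. The control-diet counts of further degradation factors (10%) and regulators (8.33%) lay near the 8.93% of all tested genes called higher. On the DHA diet these counts were 30% and 25%, against 12.7%. Some of these counts turned on few libraries. On the control diet 16 of the 72 rose without control-diet air libraries 1, 2 and 3, among them 4 of 14 folding factors, and 3 of the 14 rose without control-diet ozone library 2. The further degradation factors that rose numbered 1 on the DHA diet without DHA-diet air library 3 and 5 without DHA-diet ozone library 1, where they numbered 3 on the control diet. The further regulators that rose numbered 0 on the control diet without control-diet air library 2 and 3 without library 6.

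Of 21 further ATF4-linked targets, 6 rose and 2 fell on the control diet, and 14 rose and 1 fell on the DHA diet. On the control diet 3 rose and 1 fell without control-diet air libraries 1, 2 and 3, and on the DHA diet 10 rose and 1 fell without DHA-diet ozone libraries 1 and 2. The serine synthesis enzyme Psat1 rose 1.72-fold (0.78 ± 0.14, edgeR adjusted p = 4.9e-04) and 2.17-fold (1.12 ± 0.14, adjusted p = 6.5e-06). The mitochondrial folate enzyme Mthfd2 (1.88-fold) and the transcription factor Atf5 (1.34-fold) rose on the DHA diet, and the amino acid transporter Slc7a5 (1.62-fold) and the glycyl-tRNA synthetase Gars (1.14-fold) on the control diet. Nupr1 and Vldlr were the 2 that fell on the control diet (-0.30 and -0.24). No interaction was called by edgeR for this list, against 0% of tested genes. At an unadjusted p under 0.05, 3 of the 21 were higher and 0 lower, against 2.89% and 3.23% of tested genes. The lack of a call does not show that the list responded equally on the 2 diets.

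Marker genes of several cell types moved with ozone in the same libraries, and in whole tissue a change in the number of cells cannot be told apart from a change in RNA per cell. Of 10 alveolar type 2 markers 8 were called higher on the control diet, where their summed level had a median of 28758 CPM in air (25413 to 37738) and 36202 after ozone (35691 to 36997). On the DHA diet 4 of 10 were called higher (medians 37381 and 39182.5 CPM). All 10 cycling-cell markers rose on both diets, from 56.9 to 74.1 CPM to 117 to 176 on the control diet and from 60.3 to 81.2 to 87.4 to 315 on the DHA diet. Neutrophil markers rose in 1 of 9 and 7 of 9, and DHA-diet ozone libraries 1 and 2 held 280.3 and 366 CPM of them against 78.8 to 114 in libraries 3 to 6. Without these 2 libraries 2 of 9 neutrophil markers rose on the DHA diet, and without library 2 alone 4 rose. Alveolar macrophage markers rose in 2 of 9 and 3 of 9 (1 of 9 on the DHA diet without those 2 libraries). Their summed level did not overlap between air and ozone on either diet, at 324 to 397 and 459 to 574 CPM on the control diet and 356 to 418 and 463 to 633 CPM on the DHA diet. Of 14 plasma and B cell markers listed, 11 were in the deposited table and 10 were tested, without Tnfrsf17. Of these 10, 1 rose on the control diet, Sdc1, and 1 rose and 2 fell on the DHA diet. On the control diet only 3 of the 10 had a log2 fold change above 0, and the median was -0.05. The summed level of these 10 nevertheless went from 474 to 561 CPM in air to 572 to 619 after ozone on that diet, without overlap. It overlapped on the DHA diet. The alveolar type 1 markers Hopx and Aqp5 rose on both diets (2 of 6 on each). Of 5 club cell markers Hp rose on both diets, and Scgb3a1 fell on the control diet. The club cell sum overlapped between air and ozone on both diets and was lowest in DHA-diet ozone library 1, at 60229 CPM. Of 7 goblet cell markers Clca1 and Agr2 rose on the control diet, and Tff2 fell on the DHA diet. Adipocyte markers had a median log2 fold change of -0.52 and heart muscle markers of -0.32 on the control diet, with 1 of 7 called lower in each list, Plin4 and Myh6, and 0 of 7 called on the DHA diet. These medians were -0.39 and -0.17 without control-diet air libraries 1, 2 and 3, and the alveolar type 1 and heart muscle lists held 0 calls on the control diet. No marker of these lists was at 0 in all libraries. The part of these cell types in the results was not tested.

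Summed over the 41 genes, which is led by the most abundant, the level ran from 5987 to 6402 CPM in control-diet air and 6755 to 7804 after ozone, and from 6185 to 6785 in DHA-diet air and 7212 to 8518 after ozone. Ozone and air did not overlap on either diet. Control-diet air library 5 held 37738 CPM of alveolar type 2 markers, above all 6 control-diet ozone libraries. Its sum of the 41 genes, 6402 CPM, was below all of those and the highest of control-diet air. Control-diet air library 6 came next within that group in both, at 33477 and 6267 CPM. The part of alveolar type 2 cells in the sum of the 41 genes was not tested. In the fit without DHA-diet ozone libraries 1 and 2, 25 members were called higher on the DHA diet. Without control-diet air libraries 1, 2 and 3, which stood apart in ribosomal protein transcripts, 15 members were called higher and 0 lower on the control diet: 6 of 11 chaperones, 5 of 6 isomerases, 1 of 7 degradation factors, 3 of 5 translocation factors, 0 of 6 sensors and 0 of 6 effectors, with a median log2 fold change of 0.18 over the 41 genes. In the same fit 852 of all genes were higher and 951 lower, and the sensor median was 0.18, against 0.06 with all libraries. Without control-diet air libraries 4, 5 and 6 instead, 20 members were called higher and 0 lower, and 1553 of all genes were higher and 1412 lower.

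**Figure D5:**
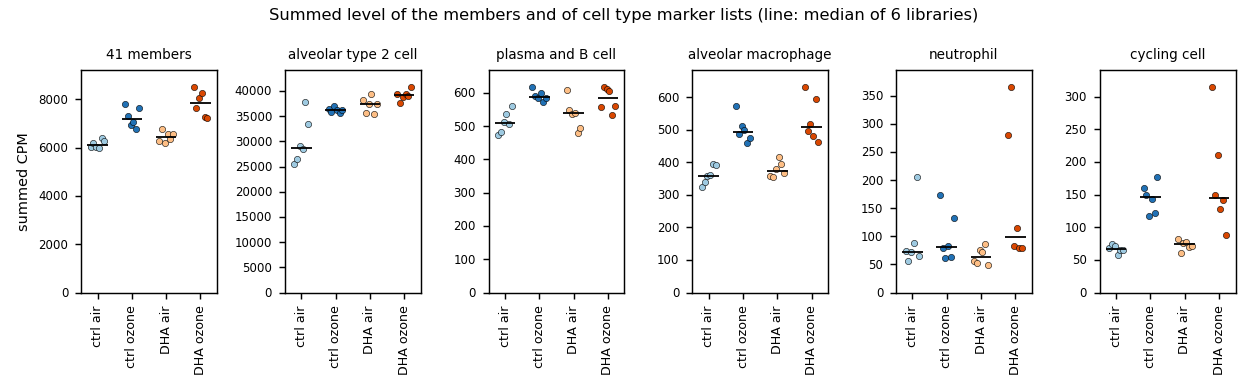
Summed CPM per library of the 41 genes and of the alveolar type 2, plasma and B cell, alveolar macrophage, neutrophil and cycling-cell marker lists, by group. The sum of the 41 genes does not overlap between ozone and air on either diet, and the alveolar type 2 sum is lowest in control-diet air, with medians of 28758 CPM there and 37381 CPM in DHA-diet air.

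The DHA diet in air was compared with the control diet in air. None of the 41 genes was called by edgeR, 0 higher and 0 lower, against 0.724% and 0.427% of tested genes. That background of 117 genes higher and 69 lower turned on single libraries. It was 37 and 12 without control-diet air library 1, 277 and 439 without library 6 of that group, and 308 and 346 without DHA-diet ozone library 1. It was 0 and 0 without control-diet air libraries 1, 2 and 3, and 655 and 896 without libraries 4, 5 and 6. At an unadjusted p under 0.05, 7 were higher and 0 lower, against 8.46% and 8.86% of tested genes, and 4 were higher without control-diet air library 2 or 4, 4 without libraries 1, 2 and 3, and 12 without libraries 4, 5 and 6. DESeq2 called 1, Dnajb9. The median log2 difference of the 41 was 0.07 (0.0701), 0.04 (0.036) without control-diet air libraries 1, 2 and 3 and 0.05 (0.0451) without DHA-diet air library 2. Dnajb9 ran from 52.8 to 65.7 CPM (median 60.1) in control-diet air and from 64.8 to 77.6 (median 68.8) in DHA-diet air and overlapping narrowly, a difference of 0.22 ± 0.06 (edgeR adjusted p = 0.067, DESeq2 adjusted p = 0.030). Derl3, the least abundant of the 41, ran from 1.55 to 1.998 CPM in control-diet air and from 2.35 to 2.57 in DHA-diet air, without overlap, a difference of 0.50 ± 0.15 (edgeR adjusted p = 0.085). Without DHA-diet ozone library 1, which is in neither group compared, both passed (adjusted p = 0.039 for Dnajb9 and 0.041 for Derl3), and Dnajb9 also passed without DHA-diet ozone library 2 (0.0496) or control-diet air library 6 (0.045). The differences were 0.16 for Dnajb9 (adjusted p = 0.316) and 0.52 for Derl3 (adjusted p = 0.246) without control-diet air libraries 1, 2 and 3. In the same comparison 5 of 10 alveolar type 2 markers were called higher, 1 without control-diet air library 1 and 0 without libraries 1, 2 and 3. At an unadjusted p under 0.05, 6 of 7 heart muscle and 5 of 7 adipocyte markers were lower (0 of either list by edgeR's adjusted p), and 1 and 0 were without libraries 1, 2 and 3. The part of these cells in the comparison was not tested. Among the other pathway genes, the membrane-bound transcription factor Creb3l1 was lower on the DHA diet (-0.39 ± 0.08, edgeR adjusted p = 0.014), and 0 others were called. The Creb3l1 call ended without control-diet air libraries 1, 2 and 3 (-0.32, adjusted p = 0.163).

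After ozone, 0 of the 41 genes were called higher and 0 lower on the DHA diet by edgeR, against 0% and 0% of tested genes, and DESeq2 called 0. Without DHA-diet ozone library 2, 71 of all genes were higher and 73 lower, and still 0 of the 41. At an unadjusted p under 0.05, 14 were higher and 0 lower, against 6.96% and 7.03% of tested genes. Single libraries moved that count both down and up. It fell to 7 when DHA-diet ozone library 4 was left out. Dropping library 3 or library 5 of the control-diet ozone group gave 9. In the other direction, dropping library 1 of that group gave 18, the highest count with 1 library removed. Dropping library 2 of the DHA-diet ozone group gave 17. The count was 14 when DHA-diet ozone libraries 1 and 2 were both left out. The 14 comprised 7 of 11 chaperones, 4 of 6 isomerases, 0 of 7 degradation factors, 0 of 5 translocation factors, 1 sensor and 2 effectors, and the median log2 difference of the 41 was 0.08. Hspa5 ran from 475 to 579 CPM (median 517) on the control diet and from 522 to 785 (median 616) on the DHA diet. The groups overlapped, with 4 DHA-diet libraries above the highest control-diet library, and the difference was 0.28 ± 0.08 (edgeR adjusted p = 0.172). Txndc11 ran from 27.4 to 36.5 CPM (median 30.2) and from 32.0 to 38.8 (median 35.0), 0.20 ± 0.06 higher with overlap (edgeR adjusted p = 0.175). Without DHA-diet ozone libraries 1 and 2, whose neutrophil markers were highest, the differences were 0.21 for Hspa5 and 0.20 for Txndc11 (edgeR adjusted p = 0.254 and 0.217). Both comparisons of diet fell short of the threshold in these 41 genes, which does not show that the diets give equal levels.

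The difference between the ozone responses on the 2 diets was tested as an interaction. None of the 41 genes passed by edgeR, 0 higher and 0 lower, against 0% and 0% of tested genes, and DESeq2 called 0 members. At an unadjusted p under 0.05, 1 was higher (Txndc11) and 1 lower (Derl3), against 2.89% and 3.23% of tested genes. Txndc11 had an interaction of 0.18 ± 0.08 (edgeR adjusted p = 0.809) and Derl3 of -0.45 ± 0.21 (adjusted p = 0.794). Derl3 stood at medians of 1.75, 2.25, 2.52 and 2.504 CPM in control-diet air, control-diet ozone, DHA-diet air and DHA-diet ozone, and without DHA-diet ozone libraries 1 and 2, which were lowest in their group, the interaction was -0.27 (adjusted p = 0.752). For the 7 genes called on 1 diet alone (Dnajb9 and Eif2ak3 on the control diet, and Asns, Creld2, Txndc11, Wfs1 and Xbp1 on the DHA diet) the interaction had adjusted p-values of 0.809 to 0.945, so their responses were not shown to differ between diets.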

How the data were processed

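RNA was sequenced in 24 mouse lung libraries, 6 per group, and groups came from the titles. Per the submitters' processing notes, the authors used Partek, STAR and HTSeq with mm39. The sources used here give no versions, annotation or strand setting. Raw counts were deposited per gene (Scgb1a1 rounded to 3 significant digits), and libraries summed to between 18053493 and 26225630. Genes were filtered with filterByExpr (minimum count 10, minimum total 15), scaled by TMM and tested in edgeR 4.0.16 (R 4.3.3) by quasi-likelihood with 1 mean per group, 20 residual degrees of freedom and Benjamini-Hochberg adjustment over 16153 genes. The SE of a log2 fold change is its size over the square root of F. CPM use TMM-scaled totals. The members, role groups, pathway and marker lists were chosen with earlier results of these data known. Statistics are given for up to 8 called members with the highest absolute log2 fold change per ozone comparison, for the 2 smallest p-values where no member was called, and for Hspa5, Sdf2l1, Calr, Atf6, Ern1, Eif2ak3, Xbp1, Atf4, Ddit3 and Chac1. Values of other members and of their changed calls were given besides, with up to 3 called genes per pathway list. The values of 1 gene of a pathway list are not reported here. Promoters came from a RefSeq table (GRCm38.p6). The planned search of protein ends for retrieval signals was not run. Alternatives were RLE scaling, library totals, no filter, a replicate block, the 2 groups alone, DESeq2 1.42.0, an adjusted p under 0.01, and leaving out libraries. The script was tested on simulated data. Python 3.11.15, pandas 2.3.3 and matplotlib 3.10.9 made tables and figures.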

Additional observations from a re-analysis of the deposited data

Results flagged for a closer look

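In 6 libraries of a group, a library was singled out where its gap to the next took more of the group's range than Dixon's critical value, tested in 80 member groups of 20 genes. Chance gives about 1 in 20, and 3 were found. Sec61b in DHA-diet ozone library 6 was lowest at 83.3 CPM, with the next at 89.95. Chac1 in control-diet ozone library 5 was highest at 5.71 CPM, with the next at 4.11. Chac1 in DHA-diet air library 1 was lowest at 2.23 CPM, with the next at 3.36.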

How the results depend on the processing

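Of 368 member values under alternatives other than leaving out 1 library, 352 kept their direction and side of the threshold, 6 lost and 4 gained the call and 6 changed sign. Leaving out 1 library kept 870 of 888. Counts of members called higher ran from 21 to 24 on the control diet, 23 to 27 on the DHA diet and 0 to 2 for diet in air when 1 library was left out. Leaving out control-diet air libraries 1, 2 and 3 gave 15 higher on the control diet, and leaving out libraries 4, 5 and 6 gave 20. For diet in air DESeq2 called 1 member, and 2 were called without control-diet air libraries 4, 5 and 6 and 2 without DHA-diet ozone libraries 1 and 2. Sign changes among the values tallied were all in genes without a call. Some uncalled members outside the tallies changed sign too. Leaving out 1 library at a time gave -0.0223 to 0.0547 for Sel1l and -0.062 to 0.0179 for Syvn1 on the control diet. For ozone on the control diet, library totals gave -0.03 (-0.027) for Ern1 and -0.0036 for Atf4. Without control-diet air libraries 1, 2 and 3 Atf4 was -0.03 (-0.0323). Without libraries 4, 5 and 6 Atf6 was -0.10 (-0.0998), Ern1 -0.15 (-0.154) and Ddit3 0.01 (0.0148). Leaving out 1 library at a time gave -0.0488 to 0.0772 for Ern1 (below 0 also at -0.04, -0.0058, -0.0384 and -0.0403), -0.0088 to 0.0848 for Atf6 and -0.0377 to 0.1266 for Chac1 on the control diet, and -0.1567 to 0.0307 for Ern1 on the DHA diet. The cause was not tested. With the replicate number as a block, 21 members were called higher on the control diet and 26 on the DHA diet, and 0 in the other comparisons, the control-diet calls of Dnajb9 and Derl2 being the 2 that ended. The numbers do not pair the libraries: deviations from the group means of libraries that share a number correlated at -0.0169 on average, and 0 of 24 had a library of their own number as the nearest.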
